A study of Mus musculus with 6 samples.

Results

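Semaphorins, plexins and neuropilins were represented by 31 of the 57010 genes in the count table, namely 20 semaphorins of classes 3 to 7, 9 plexins and both neuropilins, chosen by gene symbol. Total RNA was sequenced from monocytes of femur and mandible bone marrow in 6 libraries, 3 femur-derived (S13, S15 and S18) and 3 mandibular-derived (S16, S19 and S23). Every library came from C57BL/6 mice aged 1 year, given as C57BL/6J males and females in the methods. A kit depleted antibody-labelled non-monocytes on a magnetic column, and the cells that flowed through were kept, so any marrow cell that the antibodies did not label stayed in the sample. The sources used here do not give a sex, an animal or a batch for any library, and nothing states that the libraries of a group came from separate animals, so p-values measure only the spread between these libraries.

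Semaphorins are secreted or membrane-bound proteins first known for steering growing axons, and they also act on blood vessels, immune cells and bone. Plexins are their receptors and carry a cytoplasmic domain that switches off small Ras-like GTPases, and neuropilins are co-receptors that bind class 3 semaphorins and VEGF. In bone, Sema4d made by osteoclasts restrains osteoblasts through Plxnb1, Sema3a made by the osteoblast lineage restrains osteoclast formation through Nrp1, and Sema6d acts on myeloid cells through Plxna1. The members were read as 9 myeloid-expressed genes (Sema4a, Sema4b, Sema4d, Sema7a, Plxna1, Plxnb2, Plxnc1, Plxnd1 and Nrp1), 14 mesenchymal genes (Sema3a to Sema3f, Sema5a, Sema5b, Sema6a, Sema6d, Plxna2, Plxna4, Plxnb1 and Nrp2) and 8 genes in neither list. Both lists were drawn from textbook expression with earlier results of these data known.

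The libraries held 15718782 to 25371474 counts on genes, of which 0.0592 to 0.146% fell on the members. Expression is given as counts per 1000000 counts on genes (CPM), scaled by the trimmed mean of M values (TMM). Where a library had no count, the limit of 3 counts corresponds to 0.132 to 0.171 CPM, for counting error only. Female-specific Xist reached 1433 CPM in mandible S23 and at most 0.547 CPM elsewhere, and Y-linked genes had no count in S23 and 2772 to 4590 counts in each other library. The monocyte markers, which include Csf1r, Ly6c2 and Ccr2, were detected in every library, and their 14 genes summed to 7069 to 14245 CPM in the femur and 6675 to 11724 CPM in the mandible.

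Of the 30 members with enough counts to test, 6 were higher in mandibular-derived monocytes and 0 were lower. They were the ligands Sema5a, Sema3b and Sema3d, the receptors Plxna1 and Plxna2, and the co-receptor Nrp2, with fold changes of 4.24 (Plxna1) to 52.4 (Sema3b). Calls required at least a 2-fold change and an edgeR adjusted p under 0.05, meaning the Benjamini-Hochberg value of the quasi-likelihood test over all 18114 tested genes. By that rule 3.88% of all tested genes were higher and 1.30% were lower in the mandible. An unadjusted p under 0.05 was seen in 16 of the 30 members, where 16.4% of all tested genes had one, and DESeq2 called 10 members higher and 0 lower. The remaining member, Sema5b, had 11 counts in femur S15 and none in the other 5 libraries, and was not tested. In 16 of the 30 tested members all mandible libraries lay above all femur libraries, and in 1, Plxnb3, all lay below, where 12.8% and 11.4% of all tested genes did so. The median log2 fold change of the tested members was 1.09, against -0.038 over all tested genes. For 6 members, Sema3a, Sema3b, Sema3d, Sema3e, Sema3f and Sema6c, at most 1 femur library reached the level of the filter on low counts (0.493 CPM before TMM scaling) while all mandible libraries did. They passed through the mandible libraries, so such medians are descriptions of the genes that passed.

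**Figure D1:**
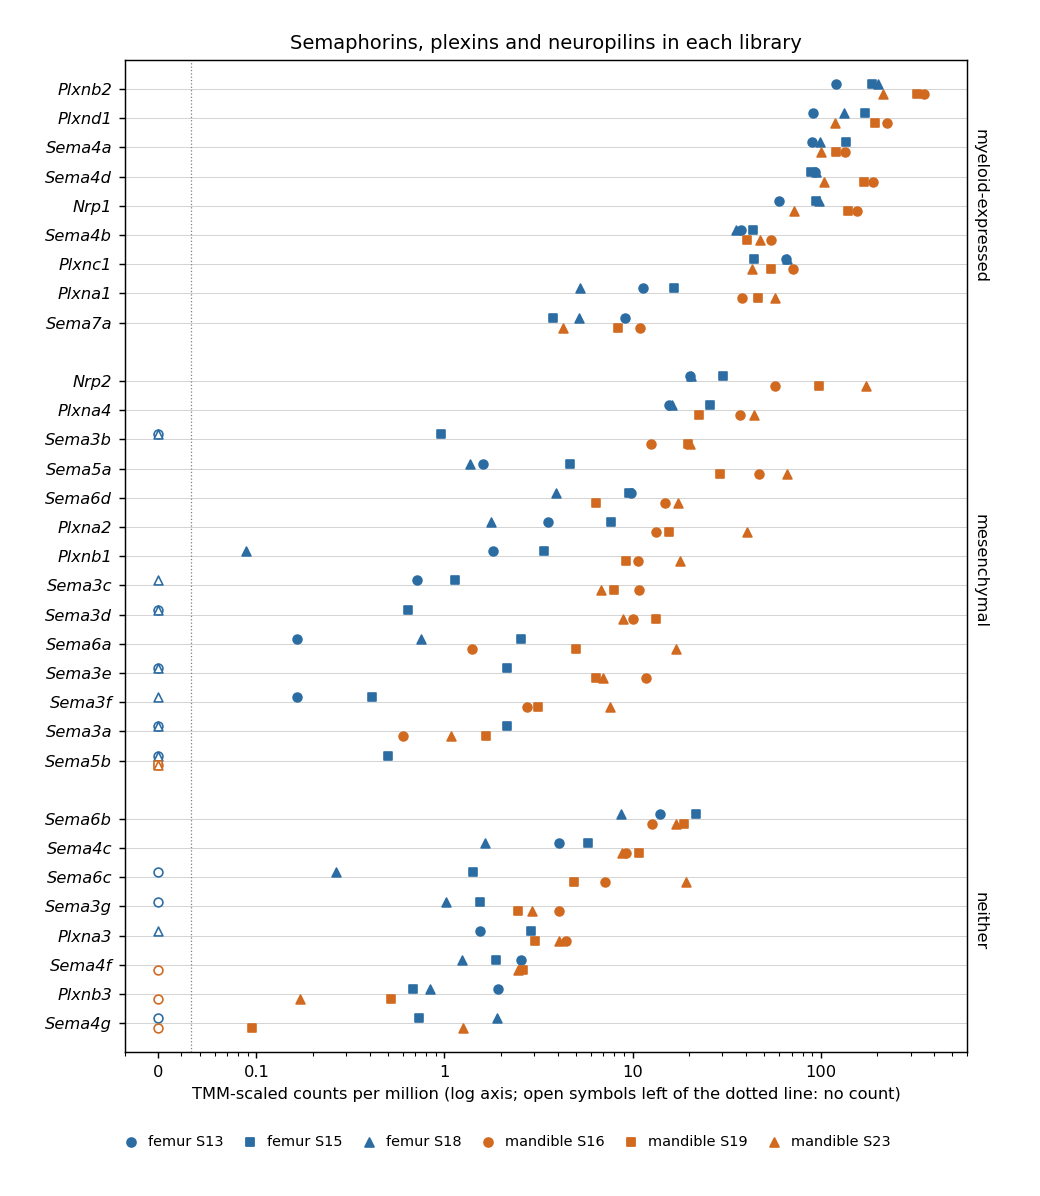
Expression of the 31 members in each library, in TMM-scaled CPM on a log axis, with femur libraries in blue and mandible libraries in orange, open symbols marking no count, and genes grouped by expression list. For mesenchymal members such as Sema5a, Sema3b and Nrp2 every orange symbol lies to the right of every blue one. The same holds for myeloid-expressed Plxna1, Plxnb2 and Sema4d. The colours overlap for mesenchymal Sema3a, Sema6a, Sema6d and Plxna4, and for myeloid-expressed Sema4a, Sema4b, Sema7a, Plxnd1, Plxnc1 and Nrp1.

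The plot of expression by library shows the members sorted by list and level. Mesenchymal members with open blue symbols had no count in one or more femur libraries, and for Sema3a, Sema3b, Sema3d and Sema3e this was so in both S13 and S18. In 21 of the 30 tested members femur S15 was the highest femur library, 70.0% of them, against 42.9% of all tested genes.

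Promoter sequence was available for 26 of the 31 members, in 37 windows of RefSeq starts on GRCm38.p6. Plxna1, Plxna4, Sema3b, Sema3f and Sema6a had no window. The 250 bases before each start were searched on both strands for TATAAA (the TATA box), GGGCGG (the GC box), TGTGGT (the RUNX core) and GAGGAA (the PU.1 core, PU.1 being a myeloid transcription factor). GGGCGG was found in 27 of the 37 windows (73.0%, against 32.7% of 32851 windows of all genes) and TATAAA in 0 (against 12.4%). GAGGAA was found in 12 windows (32.4%, against 23.3%), 7 of the 15 windows of myeloid-expressed members and 0 of the 11 windows of mesenchymal members. The other windows with GAGGAA belonged to Plxnb3, Sema3g, Sema4f, Sema4g and Sema6b, which are in neither list, so the motif was not particular to myeloid-expressed members. Sema4a and Sema4b each had several windows with it, and the windows of myeloid-expressed Plxnb2, Sema4d and Sema7a held none. TGTGGT was found in 5 (13.5%, against 14.0%). The median GC content of the windows was 64.0%, against 52.4%. A match is a string of letters and not a bound site, and these counts were not tested. As examples picked by this motif, 3 myeloid-expressed members whose windows hold GAGGAA are printed with 3 mesenchymal members whose windows do not. Their contrast in GAGGAA follows from that choice and does not compare the lists. The sequences run 5′ to 3′ on the strand of the gene, with every match of the 4 motifs in capitals. Bases that fall in an exon of GENCODE M21 are left out.
Nrp1, chr8:128358823-128359072, plus strand: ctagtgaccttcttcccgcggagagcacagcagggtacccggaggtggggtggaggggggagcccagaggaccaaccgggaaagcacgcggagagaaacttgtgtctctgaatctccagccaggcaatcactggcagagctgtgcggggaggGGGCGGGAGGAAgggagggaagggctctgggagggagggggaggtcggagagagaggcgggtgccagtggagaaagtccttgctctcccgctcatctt
Plxnc1, chr10:94944846-94945095, minus strand: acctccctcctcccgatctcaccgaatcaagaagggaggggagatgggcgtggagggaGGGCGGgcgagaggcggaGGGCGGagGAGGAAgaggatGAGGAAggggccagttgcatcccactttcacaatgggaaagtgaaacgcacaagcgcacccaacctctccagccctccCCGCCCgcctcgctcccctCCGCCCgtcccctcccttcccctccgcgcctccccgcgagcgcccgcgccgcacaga
Plxnd1, chr6:115995006-115995255, minus strand: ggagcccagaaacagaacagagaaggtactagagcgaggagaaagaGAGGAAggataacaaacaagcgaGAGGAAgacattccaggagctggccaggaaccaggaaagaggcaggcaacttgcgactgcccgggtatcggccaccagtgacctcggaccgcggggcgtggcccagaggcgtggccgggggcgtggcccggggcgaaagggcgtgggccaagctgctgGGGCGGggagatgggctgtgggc
Nrp2, chr1:62703067-62703284, plus strand: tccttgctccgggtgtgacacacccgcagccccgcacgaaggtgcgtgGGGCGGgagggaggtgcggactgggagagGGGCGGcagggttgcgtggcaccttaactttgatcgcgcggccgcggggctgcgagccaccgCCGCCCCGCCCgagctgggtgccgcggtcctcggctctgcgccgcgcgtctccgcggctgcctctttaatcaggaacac
Sema3d, chr5:12382916-12383165, plus strand: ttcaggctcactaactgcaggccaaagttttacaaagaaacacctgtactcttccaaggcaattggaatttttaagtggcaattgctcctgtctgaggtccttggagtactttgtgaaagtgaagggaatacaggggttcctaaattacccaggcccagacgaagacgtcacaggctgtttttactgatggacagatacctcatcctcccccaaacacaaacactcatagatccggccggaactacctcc
Sema3e, chr5:14025026-14025275, plus strand: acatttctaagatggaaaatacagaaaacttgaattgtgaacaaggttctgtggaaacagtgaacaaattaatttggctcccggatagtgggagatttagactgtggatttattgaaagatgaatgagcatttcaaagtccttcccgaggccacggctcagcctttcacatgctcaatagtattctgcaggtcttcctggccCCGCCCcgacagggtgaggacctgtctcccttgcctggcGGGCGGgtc
The co-receptors differ in that the GC box and the PU.1 core of Nrp1 abut in one run of capitals, while Nrp2 holds GC boxes alone. The Sema3d window holds none of the 4 motifs.

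The secreted class 3 semaphorins, which signal through neuropilins and A-type plexins, held the largest fold changes. Their 7 genes summed to 0.883 (S13), 8.98 (S15) and 1.01 CPM (S18) in the femur and to 52.5 (S16), 54.6 (S19) and 54.5 CPM (S23) in the mandible. The groups did not overlap in 6 of the 7 genes, and S15 was the highest femur library in all 7. Sema3a, Sema3c, Sema3d and Sema3e lie on chromosome 5 between 12383385 and 17730268 of GRCm38, and Sema3b and Sema3f lie on chromosome 9 between 107597674 and 107710475.

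Sema3b, a ligand for neuropilins, had no count in femur S13 and S18 and 0.958 CPM (21 counts) in S15, against 12.4, 19.7 and 20.2 CPM in mandible S16, S19 and S23. Every mandible library stood far above the highest femur library. The log2 fold change was 5.71 (standard error 1.18, edgeR adjusted p = 0.0157). Without S15 the femur holds no Sema3b count, and the mandible mean was then 114-fold above the femur limit of 3 counts per library. That bound follows from leaving out the only femur library with a count and does not add support for the difference.

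Sema3d, which guides vascular and neural crest-derived cells, had no count in S13 and S18 and 0.638 CPM (14 counts) in S15, against 10.1, 13.4 and 8.88 CPM in S16, S19 and S23. The mandible libraries stood close together and above all femur libraries. The log2 fold change was 5.59 (standard error 1.24, edgeR adjusted p = 0.0236). Without S15, the only femur library with a Sema3d count, the mandible mean was 70.2-fold above the femur limit. As for Sema3b, that bound follows from the library left out and does not add support.

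The other class 3 members were not called. Sema3c, which acts in heart outflow tract development, had a log2 fold change of 3.77 (edgeR adjusted p = 0.0807) and Sema3f, a ligand for Nrp2, one of 4.50 (edgeR adjusted p = 0.0895), and DESeq2 called both (adjusted p = 0.00239 and 0.00207). Their mandible libraries, at 6.83 to 10.8 CPM for Sema3c and 2.75 to 7.63 CPM for Sema3f, lay above all femur libraries, which reached 1.14 and 0.410 CPM. Sema3e, which binds Plxnd1 directly, had 2.14 CPM in S15, none in S13 and S18, and 6.35 to 11.7 CPM in the mandible (log2 fold change 3.52, edgeR adjusted p = 0.23). It was called without S15, the only femur library with a Sema3e count, with the mandible mean then 54.4-fold above the femur limit. That call and bound follow from the library left out and do not add support. Sema3g, an endothelial ligand, had a log2 fold change of 1.86 (edgeR adjusted p = 0.59). Sema3a alone overlapped between the sites, with 2.14 CPM in S15 and 0.600 to 1.66 CPM in the mandible.

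The membrane-bound class 4 semaphorins included the most abundant ligands, and none of the 6 was called. Sema4a and Sema4d are immune ligands and Sema4b is their close relative. Per kilobase of gene length, Sema4a, Sema4d and Sema4b held the highest levels among semaphorins, at 20.1, 12.0 and 6.89 CPM per kilobase in the femur and 21.9, 20.1 and 8.41 in the mandible. Sema4a had 90.3, 136.7 and 99.5 CPM in S13, S15 and S18 and 133.7, 121.0 and 100.8 CPM in S16, S19 and S23. Its groups overlapped (log2 fold change 0.12, standard error 0.26, edgeR adjusted p = 0.91). Sema4b, at 37.8, 43.6 and 35.3 against 54.3, 40.8 and 47.4 CPM, overlapped as well (log2 fold change 0.28, standard error 0.26).

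Sema4d, the osteoclast-derived coupling ligand, had 92.6, 88.5 and 94.9 CPM in S13, S15 and S18 and 189.3, 170.0 and 104.4 CPM in S16, S19 and S23. All mandible libraries were above the femur, S23 by the least, and the difference missed the threshold (log2 fold change 0.75, standard error 0.28, edgeR adjusted p = 0.18). The log2 fold change was 0.30 once a trend of expression with gene length had been removed in each library (the length correction). The low members Sema4c, Sema4f and Sema4g had mean levels of 0.449 to 9.64 CPM and were not called. Their log2 fold changes were 1.32 (Sema4c), -0.16 (Sema4f) and -0.96 (Sema4g), and 334 exon bases of Sema4c, 7.27%, overlap an antisense gene.

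Sema5a, a transmembrane ligand with thrombospondin repeats, had the smallest p of all members. It lies on chromosome 15 from 32244810 to 32696341, on the plus strand. It was at 1.60, 4.65 and 1.37 CPM in femur S13, S15 and S18 and at 47.1, 29.3 and 66.2 CPM in mandible S16, S19 and S23. The lowest mandible library was well above S15, the highest femur library. The means were 2.54 ± 1.83 and 47.6 ± 18.5 CPM (SD, n = 3 each), and the log2 fold change was 4.21 (standard error 0.54, edgeR adjusted p = 0.000988). Sema5a and Nrp2 were the members called in all 14 fits, the reported one included. By qRT-PCR of monocytes, the authors found Sema5a (written Sem5a) higher in the mandible as a trend only, without significance.

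The class 6 and 7 semaphorins were not called. Sema6c was at 0, 1.41 and 0.265 CPM in the femur and 7.15, 4.88 and 19.2 CPM in the mandible, with S23 far above the other libraries (log2 fold change 4.18, edgeR adjusted p = 0.0669), and was called by DESeq2, after the length correction, without S15 and without the filter on low counts. Sema6a, a ligand of Plxna2 and Plxna4, had 0.166, 2.55 and 0.750 CPM in the femur and 1.40, 5.02 and 17.1 CPM in the mandible, so that its groups overlapped and S23 held most of the mandible signal. Sema6b and Sema6d had log2 fold changes of 0.12 and 0.73. Sema7a, the lipid-anchored ligand of Plxnc1 and of integrins on monocytes, was at 6.03 ± 2.79 and 7.85 ± 3.35 CPM (SD, n = 3 each), and its groups overlapped.

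Among the 9 plexins, the receptors with the highest levels per kilobase did not pass the threshold, and 2 A-type plexins at lower levels did. Plxnb2, Plxnd1 and Plxnc1 were at 22.0, 18.1 and 6.99 CPM per kilobase in the femur and 38.5, 24.7 and 6.75 in the mandible. Plxnb2, a receptor for class 4 semaphorins, had 120.3, 187.6 and 200.9 CPM in S13, S15 and S18 and 352.0, 325.1 and 213.8 CPM in S16, S19 and S23. The groups were apart, but S23 lay just above S18 (log2 fold change 0.80, standard error 0.31, edgeR adjusted p = 0.20), and DESeq2 gave an adjusted p of 0.0499 at a fold change under 2. Plxnd1, the receptor for Sema3e, had 91.2, 172.7 and 132.9 against 226.0, 195.2 and 118.9 CPM, and Plxnc1, the receptor for Sema7a, had 65.3, 44.0 and 65.9 against 71.2, 54.5 and 43.2 CPM. Both overlapped between the sites, with log2 fold changes of 0.44 (standard error 0.33) and -0.05 (standard error 0.28).

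Plxna1, the receptor for Sema6d on myeloid cells and a partner of neuropilins, was the only myeloid-expressed member called. It was at 11.4, 16.6 and 5.25 CPM in S13, S15 and S18 and at 38.2, 46.1 and 56.8 CPM in S16, S19 and S23. Its groups did not overlap (log2 fold change 2.08, standard error 0.41, edgeR adjusted p = 0.0128). Plxna1 lies on chromosome 6 from 89316314 to 89362620, and 10.7% of its exon bases overlap the antisense gene Gm26811, so reads of the pair cannot be told apart if the counting ignored the strand, which is not given in the sources used here. The edgeR adjusted p was 0.0538 without S13, 0.0725 without S19 and 0.0619 without S23.

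Plxna2, a receptor for Sema6a, was at 3.53, 7.71 and 1.76 CPM in S13, S15 and S18 and at 13.3, 15.5 and 40.5 CPM in S16, S19 and S23. Its groups did not overlap, and S23 was far above the other mandible libraries. The log2 fold change was 2.41 (standard error 0.62) with an edgeR adjusted p of 0.0488, just inside the threshold. It was not called without S13, S18, S19 or S23 (edgeR adjusted p = 0.11 to 0.26), nor with RLE size factors or no normalization factors, nor after the length correction (edgeR adjusted p = 0.0644). Plxnb1, the osteoblast receptor for Sema4d, was at 1.82, 3.37 and 0.0882 CPM in the femur and 10.7, 9.24 and 17.8 CPM in the mandible, apart but not called (log2 fold change 2.83, edgeR adjusted p = 0.12). Plxna3 and Plxna4 had log2 fold changes of 1.37 and 0.85. Plxnb3, a receptor for Sema5a, had 15 to 35 counts per femur library and 0 to 11 per mandible library (log2 fold change -2.28, standard error 1.76, edgeR adjusted p = 0.63).

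The neuropilins differed in their values. Nrp1, which binds Sema3a and VEGF, was at 59.7, 93.9 and 98.0 CPM in S13, S15 and S18 and at 156.6, 139.7 and 72.4 CPM in S16, S19 and S23. S23 fell within the range of the femur, and the groups overlapped (log2 fold change 0.55, standard error 0.33, edgeR adjusted p = 0.49). Nrp2, which binds Sema3f and VEGF-C, was at 20.2, 30.1 and 20.3 CPM in the femur and at 56.9, 97.7 and 174.9 CPM in the mandible. S23, low for Nrp1, was the highest library for Nrp2, and every mandible library was above the femur. The Nrp2 means were 23.5 ± 5.64 and 109.8 ± 60.0 CPM (SD, n = 3 each), and its rise measured 2.22 on the log2 scale (standard error 0.40, edgeR adjusted p = 0.00722). The gene lies on chromosome 1 from 62703285 to 62818695. Whether the fold changes of Nrp1 and Nrp2 differ was not tested.

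**Figure D2:**
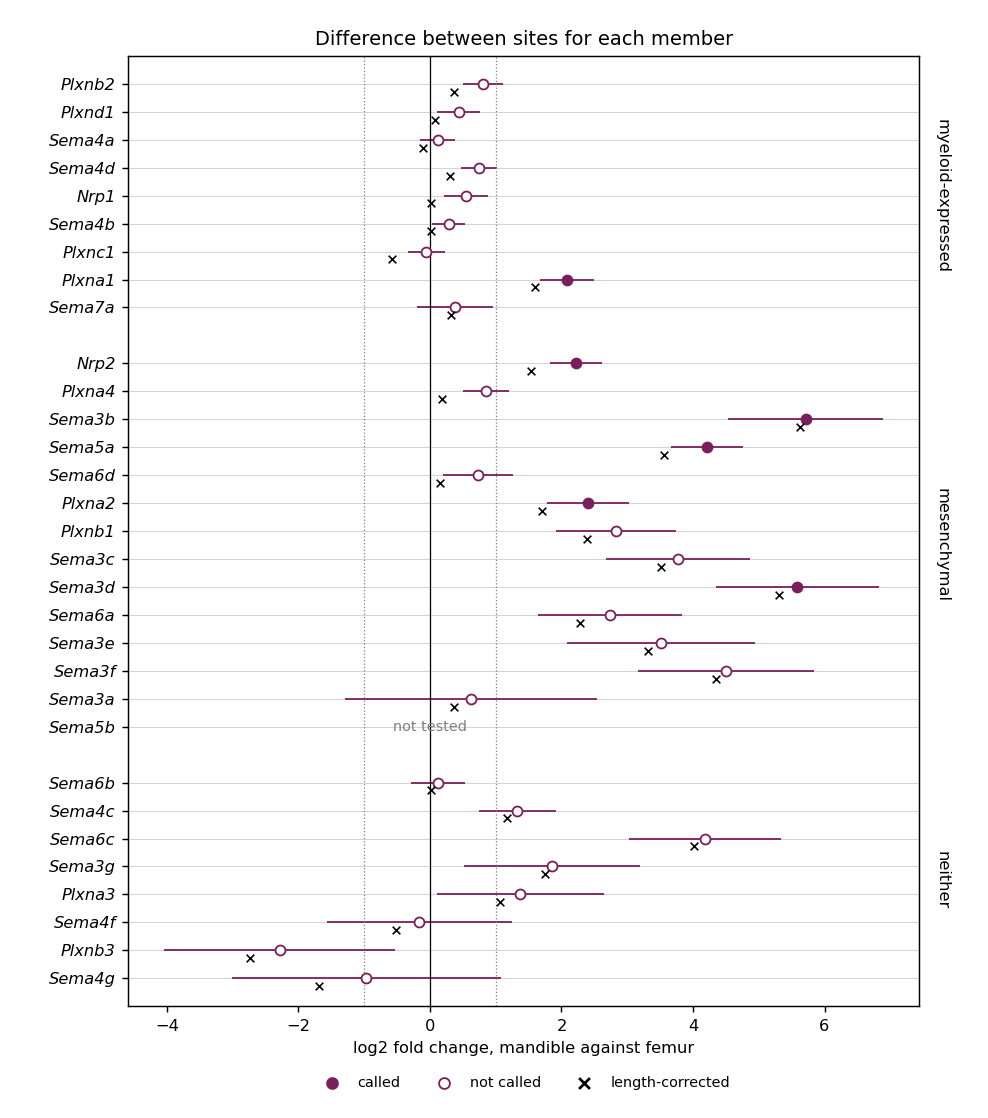
Log2 fold change of each tested member, mandible against femur, with bars of 1 approximate standard error derived from the edgeR test, filled circles for called members, crosses for the value after the length correction and dotted lines at 2-fold. The 13 tested mesenchymal members lie to the right of 0, with 5 filled and crosses between 0.16 and 5.62. Of the 9 myeloid-expressed members 1, Plxna1, is filled. The other 8 have circles between -0.05 and 0.80 and crosses between -0.58 and 0.37. The crosses of mesenchymal Sema3a, Plxna4 and Sema6d lie in that last range too.

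Set side by side, the lists had different medians. Of the 13 tested mesenchymal members 5 were called higher, 13 had a log2 fold change above 0, 11 had an unadjusted p under 0.05 and 9 did not overlap between groups, with a median of 2.83. Of the 9 myeloid-expressed members 1 was called, 8 were above 0, 3 had an unadjusted p under 0.05 and 3 did not overlap, with a median of 0.44. The 8 genes in neither list held 0 calls (2 with an unadjusted p under 0.05, 0 by limma-voom and 1, Sema6c, by DESeq2) and had a median of 0.72. Over all tested genes, 3.88% were called higher, 16.4% had an unadjusted p under 0.05, 12.8% had every mandible library above the femur, and the median was -0.038. The plot of log2 fold changes shows the spread within each list, where the mesenchymal values run from 0.62 (Sema3a) to 5.71 (Sema3b). Mesenchymal Sema3a, Sema3b, Sema3d, Sema3e and Sema3f passed the filter on low counts through the mandible libraries, and no myeloid-expressed member did. The counts and the median of the mesenchymal list therefore rest in part on the filter. Because the lists were drawn up with earlier results of these data known, their contrast is a description and not independent support. The difference between the lists was not tested.

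Fold changes followed gene length over the whole table. With the tested genes cut into 10 equal bins by length, the longest bin had a median of 0.23 on the log2 scale with 8.77% called higher and the shortest bin one of -0.65 with 0.331% called higher. Of the 30 tested members, 19 fell in the longest 2 bins. After a correction by loess for gene length, fitted to each library on its own, the median over all genes moved from -0.038 to -0.18, that of the mesenchymal members from 2.83 to 2.39 and that of the myeloid-expressed members from 0.44 to 0.081. Sema5a, Nrp2, Plxna1, Sema3b and Sema3d stayed called, Plxna2 did not and Sema6c was added (edgeR adjusted p = 0.0400). The part of length in the values before correction was not tested further.

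The lists were then summed by library. The 9 myeloid-expressed members summed to 577.8, 787.3 and 737.8 CPM in S13, S15 and S18 and to 1232, 1101 and 761.9 CPM in S16, S19 and S23. Mandible S23 fell within the femur range, and S16 was the highest mandible library in 8 of the 9 genes (32.6% of all tested genes). The exception was Plxna1, the called gene of this list, which was highest in S23. The 14 mesenchymal members summed to 53.6, 91.7 and 44.4 CPM in the femur and to 230.2, 237.8 and 430.0 CPM in the mandible. The groups stood apart, with S15 highest in the femur and S23 highest in the mandible, and S23 was the highest mandible library in 9 of the 13 tested genes (38.2% of all tested genes). As a share of all member signal per kilobase, the mesenchymal members took 4.79, 6.02 and 3.24% in the femur and 10.5, 12.5 and 24.6% in the mandible. Per kilobase, Nrp2 and Plxna4 were at 1.99 and 1.36 CPM in the femur, above Plxna1 at 1.22, so the mesenchymal list also holds genes with counts in every femur library.

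Markers of other cells also differed between the sites. Of the 18 mesenchymal and osteoblast markers 15 were called higher, and they summed to 389.3 to 502.7 CPM in the femur and to 9285 (S16), 12224 (S19) and 15978 CPM (S23) in the mandible. None of the 18 was at 0 in all femur libraries, and the bone collagen gene Col1a1 had 24.3 to 44.9 CPM there. The 3 markers not called were Cxcl12, Lepr and Twist1 (log2 fold change 4.22, edgeR adjusted p = 0.0782). Cxcl12, a niche chemokine, was at 147.1 to 242.7 CPM in the femur and 34.6 to 120.3 CPM in the mandible, with all mandible libraries below the femur (log2 fold change -1.42, edgeR adjusted p = 0.0840, DESeq2 adjusted p = 0.0181), and Lepr had a log2 fold change of -0.44. Of the 9 tested dental and oral epithelium markers 5 were called higher, and the 10 markers of the list summed to 11.0 to 12.3 CPM in the femur and 5766 to 11246 CPM in the mandible, with Krt5 at no count in S13 and S15. Of the 7 tested endothelial markers 0 were called higher and 2, Esam and Vwf, lower, 3 were above 0 and the median log2 fold change was -0.15. Their sums of 144.7 to 211.8 CPM in the femur and 35.3 to 48.0 CPM in the mandible were mostly Vwf (121.1 to 192.0 and 23.3 to 28.3 CPM), which platelets also hold, and Cldn5 had no count in any femur library. Of the 7 tested megakaryocyte and platelet markers 6 were called lower, and the list summed to 456.8 to 730.3 CPM in the femur and 52.8 to 79.6 CPM in the mandible. Erythroid markers (2 of 6 called lower) summed to 178.1 to 1308 and 84.1 to 162.0 CPM, and neutrophil markers (1 of 10 called lower, all 10 below 0) to 3687 to 32913 and 3942 to 10346 CPM. Of the 14 monocyte and macrophage markers 1, Nr4a1, was called higher. The part of these cells in the members' values was not tested, and in bulk RNA more cells of a type and more RNA per cell cannot be told apart.

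**Figure D3:**
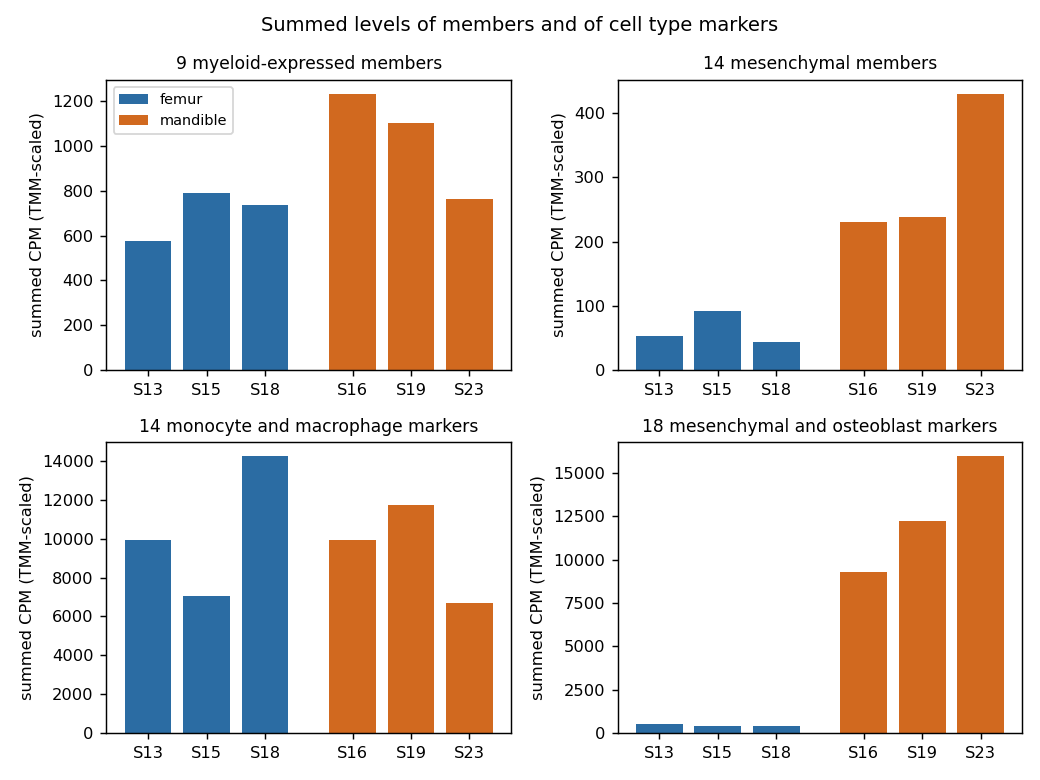
Summed TMM-scaled CPM per library of the myeloid-expressed and mesenchymal members (top) and of monocyte and mesenchymal markers (bottom), with 1 bar for each library and a separate axis from 0 in each panel. The mesenchymal members and the mesenchymal markers are both highest in mandible S23, at 430.0 and 15978 CPM, and the myeloid-expressed members and monocyte markers are lowest among mandible libraries in S23.

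The bar plot of sums shows that S23 combined the highest mesenchymal and the lowest monocyte marker sum in the mandible. The dental and oral epithelium markers, not plotted, were also highest in S23, at 11246 CPM against 5766 (S16) and 7314 CPM (S19). S23 was also the library with Xist at 1433 CPM and no Y-linked count. What sets S23 apart was not tested. Without S23, Sema5a and Nrp2 stayed called (edgeR adjusted p = 0.00612 and 0.0293), while Plxna1, Plxna2, Sema3b and Sema3d were not (edgeR adjusted p = 0.0548 to 0.26). Their log2 fold changes without S23 were 1.87 for Plxna1, 1.67 for Plxna2, 5.54 for Sema3b and 5.65 for Sema3d, against 2.08, 2.41, 5.71 and 5.59 with it. Those 4 were also lost without S19 (edgeR adjusted p = 0.0725 to 0.14). Leaving out S13 lost Plxna1, Plxna2 and Sema3d, and leaving out S18 lost Plxna2 and Sema3d. Femur S15, which held most femur counts of the class 3 genes, differed from S13 and S18 in its neutrophil markers too, at 3687 CPM against 32913 and 23581 CPM. Without S15, 9 members were called, with Plxnb1, Sema3e and Sema6c added, and the median of the mesenchymal members was 4.55, or 4.02 with genes that then had no femur count set at their lower bound. Sema3b, Sema3d and Sema3e then had no femur count, so their calls in that fit do not add support.

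**Figure D4:**
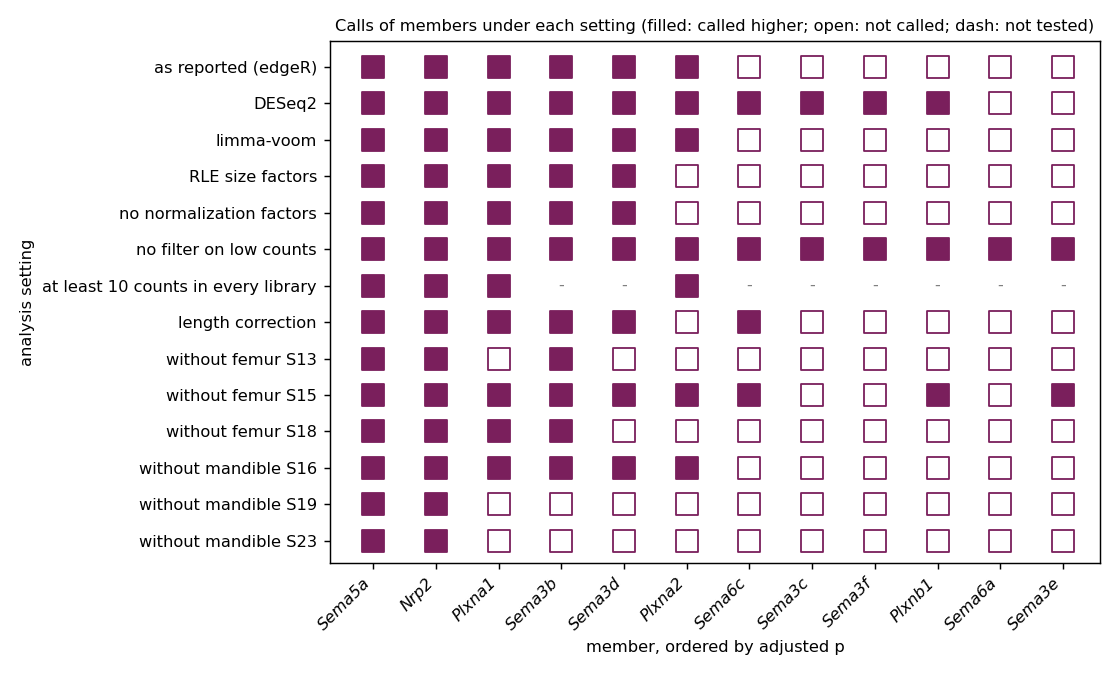
Calls of the 12 members called in at least 1 analysis, with 1 column for each member and 1 row for each analysis setting, where filled squares mark a call of higher in the mandible, open squares no call and dashes a gene not tested. Sema5a and Nrp2 are filled in all 14 rows, and Plxna2 in 7 of 14.

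The grid of calls shows which members depend on the setting. Plxna1 was called in 11 of 14 analyses, Sema3b in 11 of 13, Sema3d in 9 of 13 and Plxna2 in 7 of 14. The 6 members called in other analyses alone were Sema6c (4 of 13), Plxnb1 (3 of 13), Sema3c, Sema3e and Sema3f (2 of 13 each) and Sema6a (1 of 13). DESeq2 added Sema6c, Sema3c, Sema3f and Plxnb1, and testing without a filter on low counts added these with Sema3e and Sema6a.

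Known ligand and receptor pairs were set beside each other per kilobase, as a rough level between genes. The length covers all annotated exons of a gene, which need not all be in the transcripts present. Fold changes also followed gene length, so the comparisons of ligand with receptor are descriptions only. Sema4d was at 12.0 CPM per kilobase in the femur and 20.1 in the mandible. Its osteoblast receptor Plxnb1 was at 0.184 and 1.31, while Plxnb2, another of its receptors, was at 22.0 and 38.5. For Sema3e and Plxnd1 the ligand was at 0.0770 and 0.901 CPM per kilobase and the receptor at 18.1 and 24.7. For Sema3f and Nrp2 the ligand was at 0.0369 and 0.866 and the receptor at 1.99 and 9.27. In the pairs of Sema3e and Sema3f the receptor exceeded its ligand at both sites, and for Sema4d and Plxnb1 the ligand exceeded the receptor. Sema4a, which also binds Plxnd1, was at 20.1 and 21.9, above its receptor in the femur mean and below it in the mandible mean. Sema3a, at 0.0515 and 0.0803 CPM per kilobase, stood far below Nrp1, at 8.57 and 12.6. For Sema5a and Plxnb3 the ligand went from 0.136 to 2.54 CPM per kilobase and the receptor was at 0.177 and 0.0355. For Sema6d and Plxna1 the values were 0.736 and 1.23 for the ligand and 1.22 and 5.19 for the receptor. Sema7a, at 1.83 and 2.38, and Plxnc1, at 6.99 and 6.75, had log2 fold changes of 0.38 and -0.05.

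Co-receptors and genes downstream of plexins were read from 4 lists of 63 genes, 61 of them tested. Of these, 5 were called higher and 0 lower, 13 had an unadjusted p under 0.05 (3.88%, 1.30% and 16.4% of all tested genes did so), DESeq2 called 8 higher and 0 lower, and the median log2 fold change was 0.34 (-0.11 after the length correction). The called genes were Ptk7, Dpysl3, Mical2, Farp1 and Mras. Per list, 1 of 13 co-receptors and signal chains, 0 of 7 VEGF ligands and receptors, 2 of 22 small GTPases and regulators and 2 of 19 cytoskeleton genes and kinases were called, too few to read against the 3.88% over all genes. The VEGF list had 1 gene with an unadjusted p under 0.05, Flt4 (log2 fold change 2.99), named after its value was seen.

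Dpysl3, a collapsin response mediator that couples semaphorin signals to microtubules, was at 2.76, 4.83 and 3.49 CPM in S13, S15 and S18 and at 28.9, 27.6 and 40.6 CPM in S16, S19 and S23. The groups were far apart (log2 fold change 3.13, standard error 0.39, edgeR adjusted p = 0.000788). Ptk7, a co-receptor with an inactive kinase domain, was at 4.69, 4.24 and 1.41 against 18.2, 38.4 and 46.7 CPM (log2 fold change 3.32, edgeR adjusted p = 0.00405). Farp1, an exchange factor that binds A-type plexins, was at 0.993, 1.32 and 3.18 against 11.2, 18.1 and 22.1 CPM (log2 fold change 3.22, edgeR adjusted p = 0.00786). In each of these genes the lowest mandible library exceeded the highest femur library. Mical2, an actin-oxidizing enzyme, and Mras, a Ras-like GTPase, rose with log2 fold changes of 2.16 and 2.51 (edgeR adjusted p = 0.0303 and 0.0340). Limma-voom called neither of them (adjusted p = 0.0577 and 0.0810), and neither was called without S13, S18, S19 or S23 (edgeR adjusted p = 0.0772 to 0.22). After the length correction Mical2 was not called (edgeR adjusted p = 0.12). Farp1 was not called without S19 (edgeR adjusted p = 0.0604).

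The most abundant pathway genes were not called. Ptprc, the leukocyte phosphatase CD45, and Itgb1, an integrin chain bound by Sema7a, had log2 fold changes of 0.30 and 0.48. Tyrobp, the adaptor that carries Plxna1 and Trem2 signals in myeloid cells, was at 302.3, 277.4 and 342.5 CPM in S13, S15 and S18 and at 145.1, 180.1 and 177.9 CPM in S16, S19 and S23. All mandible libraries lay below the femur (log2 fold change -0.88, standard error 0.26, edgeR adjusted p = 0.0831), and the value was -0.17 after the length correction. The GTPases Rhoa and Rap1b and the kinase Rock1 had log2 fold changes of -0.09, -0.67 and 0.13, and the actin-severing Cfl1, the plexin-binding kinase Fes and the kinase Gsk3b had -0.15, -0.57 and 0.49. Vegfa, Vegfb and the receptor Flt1 had 0.34, 1.03 and 0.53.

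**Figure D5:**
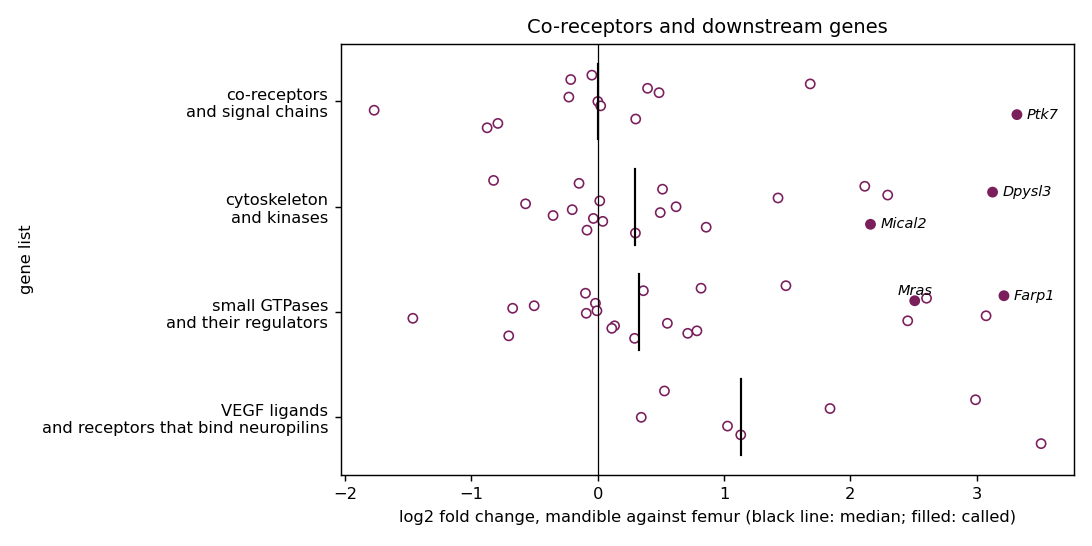
Log2 fold change, mandible against femur, of the 61 tested genes in the 4 lists of co-receptors and downstream genes, with 1 point per gene, filled where called, and a black line at each list's median. The points scatter on both sides of 0 in 3 lists, and the 5 filled points lie between 2.16 and 3.32.

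The plot of downstream genes shows medians of 0.00046 (co-receptors), 0.30 (cytoskeleton), 0.33 (GTPases) and 1.13 (VEGF list), against -0.038 over all tested genes. In total 40 of the 61 genes were above 0 and 16 had all mandible libraries above all femur libraries, where 12.8% of all tested genes did so.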

How the data were processed

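Reads were paired-end. The authors used Trimmomatic for trimming, HISAT2 2.1.0 for mapping to GRCm38 and featureCounts for quantification, and deposited 1 table of unnormalized counts for the 6 libraries. Its gene length in bases served levels per kilobase and the length correction. Strand and multi-mapping settings are not given in the sources used here. In R 4.3.3, counts were filtered (filterByExpr, minimum count 10, minimum total 15), scaled by TMM and tested with edgeR 4.0.16 (quasi-likelihood test, Benjamini-Hochberg adjustment, no covariates, femur as baseline), with calls at an adjusted p under 0.05 and at least 2-fold. The test reports no standard error. Those given are approximations, the absolute log2 fold change divided by the square root of the quasi-likelihood F. Alternatives were DESeq2 1.42.0, limma-voom (limma 3.58.1), RLE or no size factors, other filters, no fold threshold, a per-library loess (span 0.4) of log2 CPM on length, and each library left out in turn. The script was tested on simulated data. Positions came from GENCODE M21 by Ensembl identifier, since the table's interval lay inside the M21 gene for 5 of the 31 members, although its gene length equalled the M21 exon length in all 31.

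Members, expression lists (from textbook expression), pathway lists and markers were chosen with earlier results of these data known. Named were all members, with values by library for called members, the 3 highest semaphorins and plexins per kilobase and both neuropilins, and in each pathway list the 3 genes of highest CPM and up to 3 called genes. Other genes given by library were chosen after their values were seen. Protein sequences were not used here. Some marker results are not reported here.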

Additional observations from a re-analysis of the deposited data

How the results depend on the processing

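Among members, the number called higher in the mandible was 6 as reported, 10 with DESeq2 and 12 without a filter on low counts, and 2 to 9 with 1 library left out. It was 4 to 6 under limma-voom, RLE or no normalization factors, at least 10 counts in every library, no fold change threshold and the length correction. The number called lower was 0 under every setting, for members and for pathway genes. Among pathway genes the number called higher was 5 as reported, 8 with DESeq2, 8 without a filter, and 2 to 8 with 1 library left out. Over all genes, 702 higher calls became 1091 with DESeq2 and 376 to 957 with 1 library left out, and 236 lower calls became 457 with DESeq2, 157 without normalization factors, 571 without a filter and 58 to 608 with 1 library left out. The median log2 fold change of the tested members was 1.81 and that of the mesenchymal members 3.83 with limma-voom, and 0.87 to 1.99 and 2.43 to 4.55 with 1 library left out. The cause of these shifts was not tested.

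Directions reversed in genes that were not called. Without normalization factors, Plxnc1 was at 0.059 and Rhoa at 0.029 on the log2 scale. With the length correction, Sema4a was at -0.11, Ptprc at -0.49, Gsk3b at -0.10, Rock1 at -0.70 and Flt1 at -0.11. With 1 library left out, the log2 fold change ranged from -0.26 to 0.049 for Plxnc1, from -0.66 to 0.43 for Sema4f, from -4.09 to 0.28 for Sema4g, from -0.14 to 0.47 for Sema6b, from -0.47 to 0.080 for Cfl1, from -0.35 to 0.14 for Rhoa and from -0.022 to 0.23 for Rock1. The cause was not tested.

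No paired analysis was possible because the library numbers of the groups are all different and no label pairs a femur with a mandible library. Small counts limit the low members, since 10 members in S13 and in S18 had under 10 counts. This did not follow depth, as S18 had the most counts on genes (25371474). S23, with the fewest (15718782), had 2 such members.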
